A study of Rattus norvegicus with 11 samples.

Results

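The genes described here are the 150 that stood highest above wild type in every P23H retina, of 12037 genes in the deposited gene table. They were chosen by their values in all 11 libraries, so that their difference from wild type is a description and carries no test. A gene was kept when the mean of its 9 P23H values was at least 5 on the scale of the deposited normalized table and when its DMSO and halofantrine values overlapped, which left 11620 genes. Each was then given a score, the log2 ratio of its lowest P23H value to its highest wild-type value with 0.5 added to both. Of 1924 genes with a score above 0, the 150 with the highest score became the members, and they are referred to by their rank on it.

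RNA was taken from the retinas of 11 female rats. The P23H animals were hemizygous P23H-1 rats, bred from transgenic line 1 and Long Evans rats and labelled P23HxLE. Their eyes were injected into the vitreous, on both sides, with halofantrine (labelled HAL, n = 4), a drug developed against malaria, or with its solvent DMSO (n = 5). The wild-type rats (WT, n = 2) came from the cross labelled SDxLE and were not treated. Genotype, strain cross and injection therefore changed together between P23H and wild type and cannot be told apart, and neither can anything that follows the letter ending the sample titles, R in every P23H library and L in both wild-type libraries. Animal numbers of the halofantrine, DMSO and wild-type groups did not overlap. Any cohort behind the numbers therefore cannot be told apart from treatment, or from the difference between P23H and wild type. The age at which the retinas were collected is not given in the sources used here.

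Rhodopsin is the light-absorbing protein of rods, and P23H is a change of proline to histidine in it that causes a dominant form of retinitis pigmentosa. Rods die over time in animals that carry it, cones follow, and the glia and resident immune cells of the retina are known to react. RNA from a whole retina pools all of these cells, so that more cells of a type and more RNA per cell cannot be told apart. The files give genes by Ensembl identifier without symbols, and 0 identifiers could be matched to a symbol here. The leading members are therefore described by identifier or rank and not by function, and the retinal origin of the libraries was not checked against marker genes.

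Library totals lay between 11685202 and 34198536 estimated counts. DMSO replicate 3 stood apart from the other P23H libraries over the members, and halofantrine replicate 1 did so to a smaller extent. The main results that rest on either are given with and without it. Across the 150 members, Pearson's r of log2 levels with the mean of the other P23H libraries was 0.597 for DMSO replicate 3 and 0.932 for halofantrine replicate 1, against 0.966 to 0.983 for the other 7. These are correlations over genes, not over independent replicates, and all libraries share the genes' differences in level. Both libraries had totals inside the range of the others, at 21066605 and 29227017 counts.

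All 9 P23H values lay above both wild-type values in each of the 150 members, as the rule required. The same held for 16.6% of the 11620 genes that met the minimum level and the overlap condition. In the edgeR quasi-likelihood fit of all 11 libraries, P23H was called higher than wild type (adjusted p under 0.05, Benjamini-Hochberg) in 9.32% of 12031 genes tested and in 91 of the 150 members. Without DMSO replicate 3, P23H was called higher in 15.6% of 12030 genes and in all 150 members. The rule used this contrast, and nothing is read from these counts.

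Scores ran from 1.18 to 4.47 with a median of 1.62. A score of 1 means that the lowest P23H library lay at 2 times the highest wild-type library, after the addition of 0.5. Of the 150 members, 49 scored over 2 and 12 over 3. The last members and the first genes left out were hardly separated. The member ranked 149 scored 1.19 and the member ranked 150 scored 1.18, with a lowest P23H level of 2.58 against a highest wild-type level of 0.861. The next gene scored 1.17 (6.06 against 2.41), as did the one after it (51.2 against 22.5).

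Together, the members made up a small share of the RNA in wild type and a larger share in P23H. They held 0.213% and 0.211% of the estimated counts of the wild-type libraries. The corresponding share was 0.987% to 1.27% in 8 P23H libraries and 5.18% in DMSO replicate 3. On the normalized scale their levels summed to 2340 and 2322 in wild type, to between 9548 and 12160 in the 8 P23H libraries, and to 54907 in DMSO replicate 3. The rule required every P23H library to lie above both wild-type libraries in each member, so the order of these sums was fixed. DMSO replicate 3 was far above the rest. The sums are carried by few genes. The 5 members with the highest mean over the 8 libraries held 48.0% of a library's sum on average over the 8. The same 5 members held 26.9% of the sum in DMSO replicate 3.

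**Figure D1:**
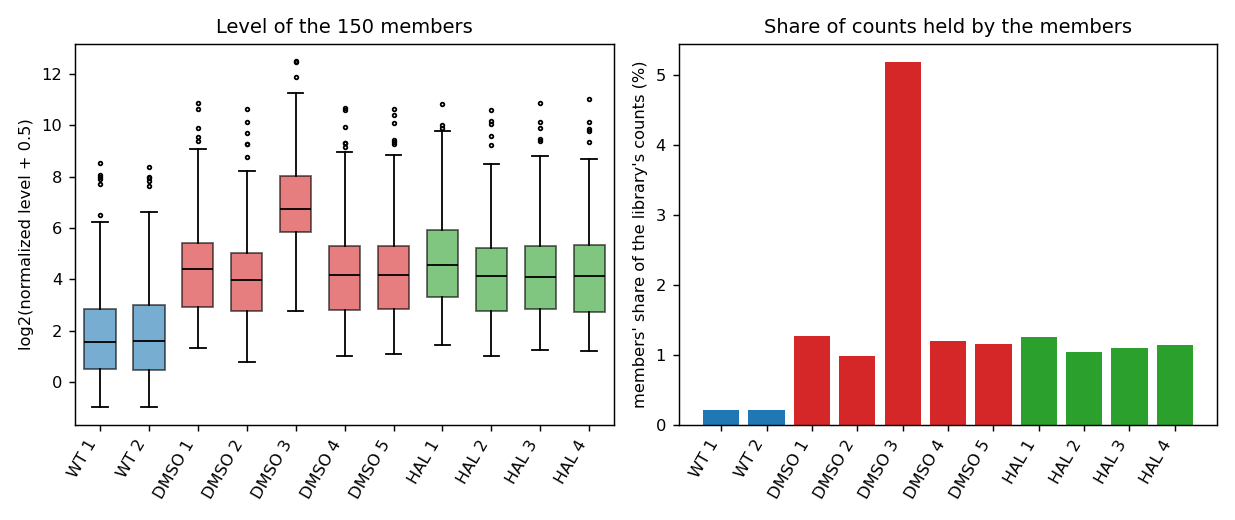
Left, box plots of the level of the 150 members in each library, as log2 of the normalized level plus 0.5 (line, median; box, quartiles; whiskers, 1.5 times the box height; points, members beyond). Right, the members' share of each library's estimated counts in percent; wild type is blue, DMSO red and halofantrine green, and DMSO replicate 3 stands at 5.18% where the other P23H libraries lie between 0.987% and 1.27%.

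The typical member was a gene of low level in wild type. The median member level was 2.46 and 2.54 in the wild-type libraries, where the median over all genes was 39.2 and 39.4. In the P23H libraries the median member stood at 20.8 in DMSO replicate 1, 15.0 in replicate 2, 107 in replicate 3, 17.4 in replicate 4 and 17.3 in replicate 5. With halofantrine it stood at 23.1, 17.1, 16.7 and 17.2 in replicates 1 to 4. The medians of all genes lay between 38.0 and 44.6 in every library, so on this scale no like difference was seen in the median gene. The scale divides each library by a constant of its own, so these medians cannot show whether the whole table shifted.

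Relative to wild type, the 8 P23H libraries other than DMSO replicate 3 were higher by a median of 2.20 in mean log2(level + 0.5) over the members, with a range of 1.42 to 6.01. The median over all 11620 genes was -0.02. The difference of the DMSO group from wild type had a median of 2.79, and 2.14 without replicate 3. The difference of the halofantrine group had a median of 2.27. The median P23H level was over 2 times the mean wild-type level in all 150 members, over 4 times in 120 and over 8 times in 44. Among all genes, 5.03%, 1.47% and 0.430% passed these marks. The members' scores fixed the first of their counts and shaped the others, so nothing is read from the contrast.

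Taken by level, the members ran from the limit of detection to abundant genes. The median of the 9 P23H values was at least 100 in 17 members and under 5 in 24. The latter passed the minimum mean of 5 through their higher libraries. In 22 members the mean of the 9 values reached 5 only through DMSO replicate 3, and without that library they would not have been kept. A further 5 members would have been lost because their DMSO and halofantrine ranges no longer overlapped. Without DMSO replicate 3 the rule thus returned 123 of the 150 members and 27 other genes.

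**Figure D2:**
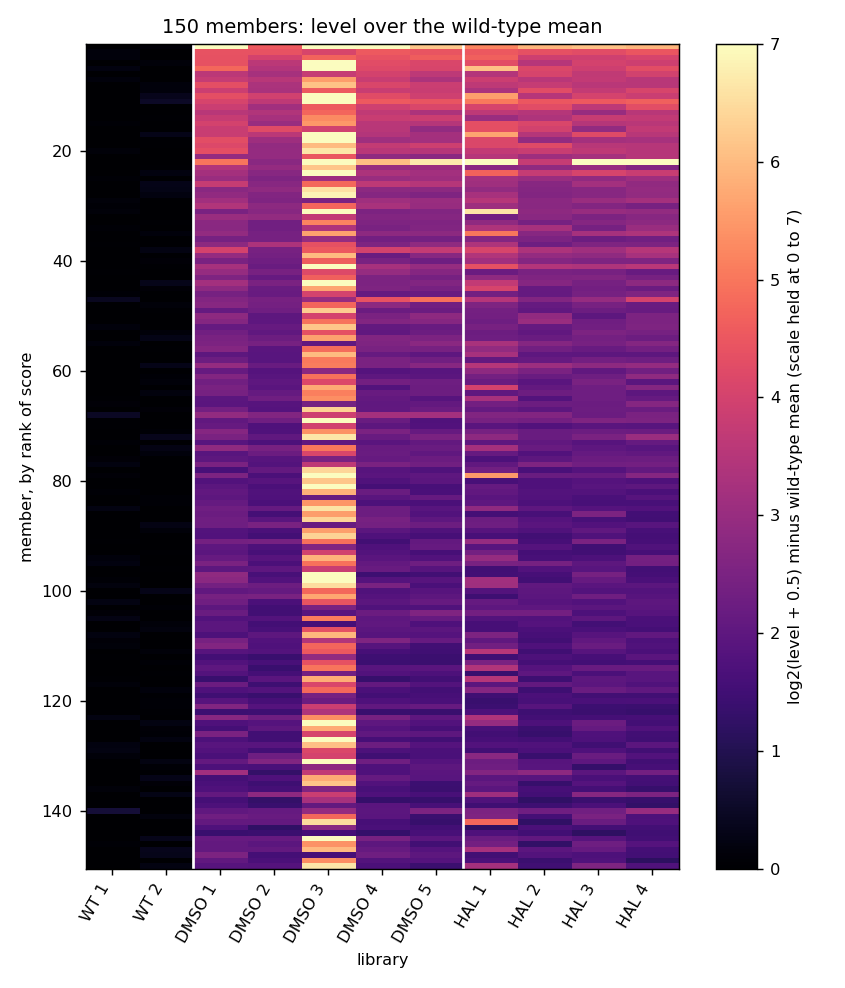
Each row is 1 of the 150 members in order of score and each column is 1 library; the colour gives log2(level + 0.5) minus the mean of the 2 wild-type libraries, with the scale held at 0 to 7. The column of DMSO replicate 3 is brighter than its neighbours in most rows, and halofantrine replicate 1 in fewer.

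The leading member by score, ENSRNOG00000029949, was close to absent in wild type, at 0.484 and 0.603. Its levels in the DMSO libraries were 154.5, 23.9, 1290, 128.9 and 75.5 in replicates 1 to 5. With halofantrine they were 38.0, 62.6, 70.2 and 62.4. The groups overlapped, with the lowest and the highest P23H value both in the DMSO group. The mean level was 335 ± 536 with DMSO (SD, n = 5), or 95.7 ± 58.1 without replicate 3 (SD, n = 4), and 58.3 ± 14.0 with halofantrine (SD, n = 4), against 0.543 ± 0.0844 in wild type (SD, n = 2). The median P23H level was 129 times the mean wild-type level. This member was the highest-scoring gene and also varied among P23H libraries more than most genes, with a coefficient of variation (SD over mean) of 1.92 over the 9 libraries and 0.57 over the 8.

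The second member, ENSRNOG00000017525, behaved differently. Its levels were 29.6, 29.7, 23.9, 33.2 and 30.7 in DMSO replicates 1 to 5 and 32.1, 28.6, 27.1 and 31.1 in halofantrine replicates 1 to 4. Wild type gave 1.09 and 0.775. DMSO replicate 3 was here the lowest P23H library rather than the highest. The mean was 29.4 ± 3.42 with DMSO (SD, n = 5) and 29.7 ± 2.27 with halofantrine (SD, n = 4), which differed by less than either SD. The median P23H level was 31.9 times the mean wild-type level of 0.932 ± 0.221 (SD, n = 2). Its coefficient of variation over the 9 P23H libraries, 0.0945, was the second lowest of the 150. Without DMSO replicate 3 it was 0.0637. In the transcript table, 98.4% of its P23H counts fell on a single transcript.

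The members that followed fell into the same 2 kinds. The member ranked 3 was even, at 30.1 to 49.9 with DMSO and 27.7 to 48.1 with halofantrine against 1.63 and 1.21 in wild type. The member ranked 4 stood at 85.8 to 150 in 4 DMSO libraries, 1154 in DMSO replicate 3, 81.6 to 141.2 with halofantrine, and 6.11 and 7.23 in wild type. In the member ranked 5, both libraries that stood apart were high. It read 328.5 in DMSO replicate 3 and 115.4 in halofantrine replicate 1, while the other 7 P23H libraries lay between 17.8 and 45.0 and wild type at 1.45 and 0.947. The member ranked 11 was at 16.1 to 43.4 in 8 P23H libraries and at 2330 in DMSO replicate 3, against 0.423 and 1.39 in wild type.

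Some members were not counted at all in wild type. Both wild-type libraries had 0 counts for the members ranked 6, 13 and 22, where 3 counts would correspond to a level of 0.181 in wild-type replicate 1 and 0.258 in replicate 2. Against the higher of these floors, the lowest P23H library was at least 16.2-fold, 13.5-fold and 11.1-fold higher in that order. These floors cover counting error only. The member ranked 6 was even among the P23H libraries, at 4.19 to 7.50 with DMSO and 5.04 to 7.85 with halofantrine. The member ranked 22 was not. It read 15.4, 2.86, 128.9, 33.0 and 52.1 in DMSO replicates 1 to 5 and 74.6, 6.30, 129.3 and 80.4 in halofantrine replicates 1 to 4, with high and low libraries in both groups. In all, 17 members had both wild-type values under 0.5.

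Other members were well expressed in wild type. The mean wild-type level was at least 10 in 27 members and at least 50 in 10. The member ranked 46 had the highest P23H level. It stood at 1885, 1599, 5763, 1562 and 1593 with DMSO, and at 1804, 1540, 1867 and 2103 with halofantrine. Wild type read 368 and 334, so that the median P23H level was 5.14 times the mean wild-type level. The member ranked 42 stood at 1116 to 1611 in 4 DMSO libraries, 3753 in DMSO replicate 3 and 922 to 1144 with halofantrine, against 211 and 200.1 in wild type. Here the halofantrine values overlapped the DMSO values through DMSO replicate 2, at 1116, and halofantrine replicate 2, at 1144.

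The most even member over the 9 P23H libraries was the member ranked 73, an abundant gene. Its levels were 949, 837, 1055, 981 and 1098 with DMSO and 1038, 1066, 946 and 1113 with halofantrine, against 265 and 246 in wild type. Its coefficient of variation over the 9 P23H libraries, 0.0878, was the lowest of the 150 members. Without DMSO replicate 3 it was 0.0926 and no longer the lowest, which was then 0.0626. The mean was 984 ± 100.9 with DMSO (SD, n = 5) and 1041 ± 70.6 with halofantrine (SD, n = 4), against 256 ± 13.9 in wild type (SD, n = 2). Over the 9 P23H libraries, the member ranked 83 was next after the members ranked 73 and 2. It read 36.2 to 50.5 in them against 10.6 and 11.9 in wild type.

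**Figure D3:**
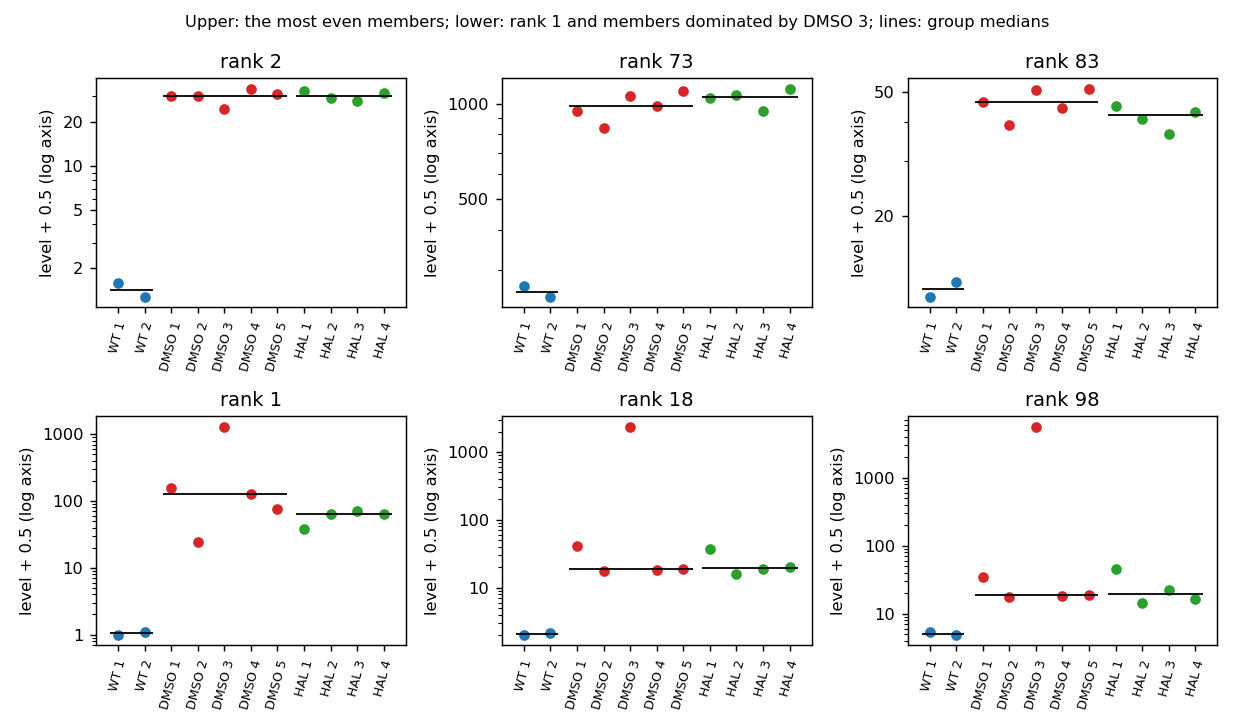
Level plus 0.5 (log axis) of 6 members in the 11 libraries, wild type in blue, DMSO in red and halofantrine in green, with horizontal lines at group medians. In the upper row (ranks 2, 73 and 83) the 9 P23H values lie close together; in the lower row (ranks 1, 18 and 98) DMSO replicate 3 lies far above the rest, at 1290, 2342 and 5614.

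DMSO replicate 3 was the highest of the 9 P23H libraries in 132 of the 150 members (88.0%) and the lowest in 3. Over all 11620 genes it was the highest in 28.9% and the lowest in 21.3%. Its level was compared with the median of the other 8 P23H libraries. The ratio had a median of 6.17 over the members, with quartiles of 2.62 and 16.8, and a median of 1.01 over all genes. It passed 2 in 118 members (78.7%, against 10.2% of all genes), 4 in 94 (62.7% against 4.18%), 10 in 52 (34.7% against 1.64%) and 20 in 27 (18% against 0.680%). The score takes the lowest P23H value, and that value came from DMSO replicate 3 in only 3 members. A gene with its lowest value in this library scored lower for it, so the rule shaped the counts of highest and lowest given here. The minimum level and the overlap condition also used this library.

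The members with the largest excess in DMSO replicate 3 were of low level elsewhere. The member ranked 98 read 34.3, 17.2, 17.6 and 18.1 in the other DMSO libraries and 5614 in DMSO replicate 3. It read 44.8, 14.1, 21.8 and 15.8 with halofantrine and 4.80 and 4.35 in wild type. The ratio of 315 to the median of the other 8 libraries was the highest among the members. The member ranked 18 read 2342 in DMSO replicate 3 against 15.2 to 40.4 in the other 8 libraries and 1.51 and 1.64 in wild type. The member ranked 24 read 713 there against 3.30 to 14.4, with 0 and 0.172 in wild type. The ratio was 127 and 111 for the members ranked 18 and 24, and 117 for the member ranked 97, given below. The members ranked 98, 18 and 24 had the highest coefficients of variation over the 9 P23H libraries, at 2.89, 2.76 and 2.75.

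The members were split at a ratio of 2 into 118 that were high in DMSO replicate 3 and 32 that were even. The split rests on DMSO replicate 3 alone and serves as a description. A member called even can vary among the other libraries, as did the member ranked 47, at 126 to 695 in the 9 P23H libraries. The member ranked 22 counts as high in DMSO replicate 3, at 128.9, although halofantrine replicate 3 reached 129.3. In the 32 even members, the levels summed to 3442 in DMSO replicate 3, inside the range of 2362 to 3446 for the other 8 P23H libraries, against 681 and 658 in wild type. In the 118 others, the sum was 51465 in DMSO replicate 3 and 7186 to 9377 in the other 8, against 1659 and 1664 in wild type. Apart from DMSO replicate 3, both kinds stood about as far above wild type. The median log2 difference of the 8 libraries from wild type was 2.18 in the even members and 2.20 in the others.

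The median level over the 8 libraries was 36.0 in the even members and 14.6 in the others, and the mean wild-type level had medians of 6.07 and 1.89. The coefficient of variation over the 8 libraries, which leaves out the library that made the split, had medians of 0.165 and 0.239. The rule itself shapes these values, since all 22 members that reached the minimum mean only through DMSO replicate 3 are among the 118, and a low gene could not enter the list in that way as an even member. Both kinds were found along the whole ranking, with 7 even members among the first 25 by score and 5 among the last 25.

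Halofantrine replicate 1 showed a weaker excess in part of the same genes. Among the 8 P23H libraries other than DMSO replicate 3 it was the highest in 65 members (43.3%, against 28.3% of all genes). Its level was over 2 times the median of the remaining 7 libraries in 28 members (18.7% against 2.49%), and the median ratio was 1.22 (1.04 over all genes). All 28 were among the 118 members that were high in DMSO replicate 3, and 0 of the 32 even members passed 2. The 118 make up 78.7% of the members, so much of this overlap follows from that share. The overlap over all genes was not counted. Across the 150 members, the log2 excesses of the 2 libraries correlated at r = 0.352. Both ratios draw on the same 7 libraries, and halofantrine replicate 1 is also among the 8 that DMSO replicate 3 is set against, so the correlation is given as a description only.

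The member ranked 31 was the clearest case. It read 3.61 to 5.38 in 7 P23H libraries, 135 in DMSO replicate 3 and 72.5 in halofantrine replicate 1, with 0.302 and 0.172 in wild type. The member ranked 79 read 1.20 to 2.91 in the 7, and 77.6 and 23.8 in those libraries. The member ranked 97 showed that the excesses could come apart, at 264.8 in DMSO replicate 3 and 2.24 in halofantrine replicate 1, where the other 7 lay between 2.09 and 6.26. RNA from cells or tissue outside the retina, RNA quality and sequencing batch were not tested as sources of these excesses.

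**Figure D4:**
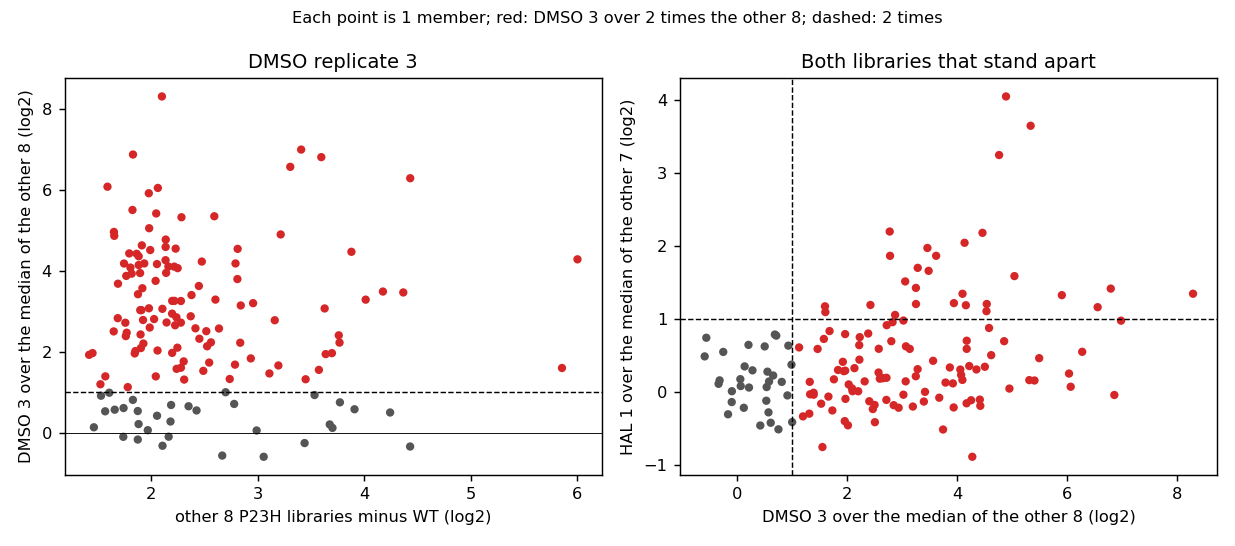
Each point is 1 member. Left, the log2 ratio of DMSO replicate 3 to the median of the other 8 P23H libraries against the log2 difference of those 8 from wild type; right, the log2 ratio of halofantrine replicate 1 to the median of the other 7 against the same ratio for DMSO replicate 3; dashed lines mark a ratio of 2, red points are the 118 members above it in DMSO replicate 3, and no grey point (the 32 even members) passes it in halofantrine replicate 1.

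Outside these libraries, the members varied among P23H retinas somewhat more than other genes. The coefficient of variation over the 9 P23H libraries had a median of 1.07 (0.161 over all genes). Without DMSO replicate 3 it was 0.231 (0.136 over all genes), and without halofantrine replicate 1 as well it was 0.184 (0.111 over all genes). Members also had lower levels, with a median P23H level of 16.9 (38.9 over all genes). Whether level plays a part in this spread was not tested. Over the 8 libraries it was under 0.25 in 89 members and over 0.5 in 18. DMSO replicate 2 was the lowest P23H library in 46 members (30.7%, against 8.43% of all genes), and halofantrine replicate 2 in 30 (against 5.11% of all genes). The lowest value is the one the score used.

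The rule was mirrored to find the 150 genes furthest below wild type in all P23H retinas. All 9 P23H values lay below both wild-type values in 20.1% of the 12037 genes. In most of the 150 mirrored genes, too, DMSO replicate 3 lay furthest from wild type. It was the lowest of the 9 P23H libraries in all but 35 of these genes, with a median ratio of 0.613 to the other 8, and was under 0.5 times their median in 46. The mirrored score takes the highest P23H value, which came from DMSO replicate 3 in only 2 of these genes. The mirrored rule thus disfavoured genes that were high in this library. The excess of DMSO replicate 3 over the raised members was the larger, with a median ratio of 6.17. Over the other 8 libraries the reduced genes were more even than the members, with a median coefficient of variation of 0.142 against 0.231.

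Whether the members differed between halofantrine and DMSO depended on DMSO replicate 3. Members were kept only when the DMSO and halofantrine ranges overlapped, so the rule used this contrast and no test is given. Halofantrine was below DMSO in mean log2(level + 0.5) in 129 members and above it in 21, with a median difference of -0.43 (-0.02 over all genes). Without DMSO replicate 3 it was below in 63 and above in 87, with a median of 0.05. Without halofantrine replicate 1 as well, it was below in 90 and above in 60, with a median of -0.03. The median mean level was 39.3 with DMSO and 19.5 with halofantrine, and 17.7 with DMSO when replicate 3 was left out, against 2.42 in wild type.

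The split by DMSO replicate 3 adds no separate evidence, since that library made the split and is part of the DMSO mean. In the 32 even members halofantrine minus DMSO had a median of -0.04, and in the 118 others it was -0.57. Without that library the medians were 0.04 and 0.05. The members with the lowest difference were those ranked 98, 131 and 18, at -1.55, -1.46 and -1.39, and each was far higher in DMSO replicate 3 than in any other library. Without that library, the member ranked 131 read 7.51 to 13.1 with DMSO and 5.89 to 10.2 with halofantrine, against 577 in DMSO replicate 3.

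The members with the highest difference were those ranked 22, 60 and 66, at 0.88, 0.33 and 0.32. DMSO replicate 3 was the highest DMSO library in each, so that the differences were larger without it, at 1.46, 0.50 and 0.41. The order also changed without it, with the members ranked 31, 79 and 24 next after rank 22, at 1.25, 1.11 and 0.97. In these, halofantrine replicate 1 was high, and without it as well they stood at 0.32, 0.32 and 0.77. The member ranked 60 was at 33.9 to 64.9 with DMSO and 39.2 to 67.7 with halofantrine, against 8.89 and 9.22 in wild type. The member ranked 66 was at 9.85 to 14.7 with DMSO and 12.7 to 17.9 with halofantrine, against 2.54 and 2.15. In each, halofantrine lay further from wild type than DMSO in the mean, while the ranges overlapped.

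**Figure D5:**
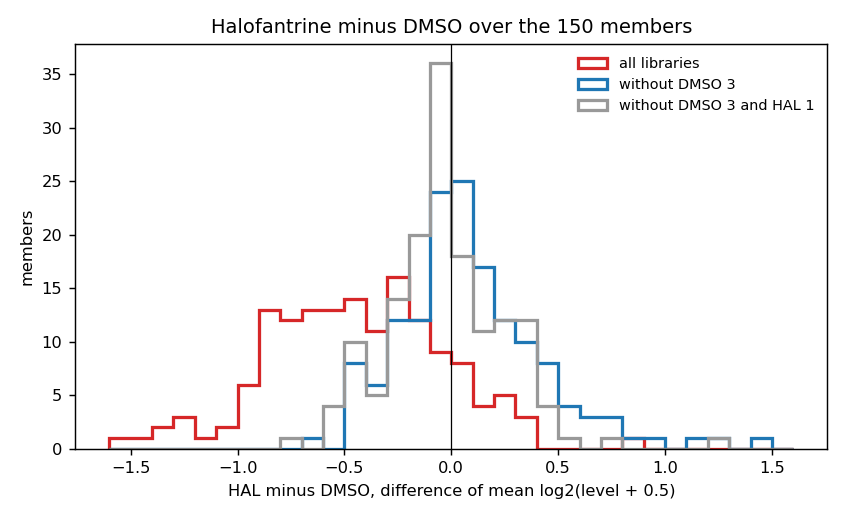
Number of members (y axis) by mean log2(level + 0.5) with halofantrine minus that with DMSO (x axis, bins of 0.1), with all libraries (red), without DMSO replicate 3 (blue) and without halofantrine replicate 1 as well (grey). The distribution with all libraries lies mostly below 0, at a median of -0.43, and the others centre near 0, at 0.05 and -0.03.

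The genes whose pattern over the 9 P23H libraries was most like that of the leading member were found by Pearson's r of log2(level + 0.5). They were the members ranked 143, 8, 77, 126 and 117, with r of 0.974, 0.973, 0.968, 0.954 and 0.950 over 9 libraries. Without DMSO replicate 3 the values were 0.891, 0.903, 0.864, 0.793 and 0.816 over 8. The libraries are shared by all members, and the values serve as a description. The member ranked 8 read 511, 254, 1760, 443 and 367 with DMSO and 318, 347, 302 and 296 with halofantrine, against 22.6 and 27.8 in wild type. Like the leading member, it was highest in DMSO replicate 3, with replicates 1, 4 and 5 next and replicate 2 lowest. The member ranked 148 had an r of 0.865 over the 8 libraries and of 0.194 over the 9, since it was not high in DMSO replicate 3, at 7.09 against 6.73 to 13.9 in the other 8.

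The transcript table was used to see how the members' counts were divided among transcripts. In 42 members (28.0%, against 28.5% of all genes) the gene's counts equalled those of a single transcript in all 11 libraries. In a further 31 they were the sum of exactly 2 transcripts, within 0.01 counts. In the member ranked 46, the main transcript read 1228 to 4843 in P23H against 301 and 284 in wild type. Its minor transcript read 250 to 919.9 against 67.4 and 50.1, and it held 16.9% of the P23H counts and 17.0% of the wild-type counts. Shares were not as alike in every member. In the member ranked 3, the main transcript held 87.6% of the P23H counts and 100% of the wild-type counts. In 18 of the 31 members, both transcripts had a median P23H level of at least 1. Both lay above wild type in all 9 P23H libraries in 13 of these, and only 1 did in 5. The counts are estimates that divide reads fitting several transcripts among them.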

How the data were processed

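Retinal RNA of 11 female rats was sequenced as strand-specific polyadenylated libraries, from RNA with an integrity number of at least 9. Per the labels and the study's methods, the authors assigned reads with kallisto to the rat Ensembl transcriptome (version 115) and used tximport to sum transcripts by gene. The deposited gene and transcript tables hold estimated counts, 12037 genes and 95472 transcripts, already restricted by a gene filter not given in the sources used here. In the deposited normalized signal, each library's gene counts are divided by a constant of its own, and levels in the text are on this scale. The authors' own comparison of the treatments (log2 fold changes, mean expression, t, raw and adjusted p-values and log-odds from limma) was not used.

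The 150 members were found by the stated rule, and no p-value is given for a member, since the rule had used all 11 libraries. The members and lists were chosen with earlier results of these data known. As background over all genes, counts were rounded and tested with edgeR 4.0.16 (quasi-likelihood F test, TMM factors, filterByExpr, 12031 genes, all 11 libraries in a single fit, mean of DMSO and halofantrine minus wild type, Benjamini-Hochberg) in R 4.3.3. The test was checked on simulated data. Nothing in the labels says that samples of a group came from separate litters, so p-values measure the spread between these samples. Replicate numbers follow the order of deposition and pair no samples. Members named in the text include the leading ones by score, those at the edge of the list and the 5 most like the leading member. They also include those with the 3 highest and lowest coefficients of variation and halofantrine minus DMSO differences. Of those with both wild-type values under 0.5, only some are named. The members ranked 42, 46, 47 and 148 were chosen after their values had been seen. The choices among the leading members and among those with both wild-type values under 0.5 were also made then. A rule on the 25 highest-scoring members with a symbol, and gene lists fixed by symbol, could not be applied, since 0 identifiers matched a symbol. Those lists, cell type markers, promoter motifs and sequences were not analysed here.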

Additional observations from a re-analysis of the deposited data

Results flagged for a closer look

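A library standing apart from its own group, by its gap to the nearest library relative to the group's range, was looked for in 66 sets of values: the members' sum, the median member level and 31 members named in the text, each in the DMSO and in the halofantrine group. It was found in 30. Chance gives such a library in about 5% of sets of independent values, but in these data a library stood apart within the DMSO group in 20.1% of all 11620 genes that met the minimum level and the overlap condition. The sets are not independent, and several members were named because they varied most. DMSO replicate 3 stood apart in the sum of the members, at 54907, and in the median member level, at 107. Halofantrine replicate 1 stood apart in the median member level, at 23.1, where the other halofantrine libraries lay between 16.7 and 17.2.

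Among the named members, DMSO replicate 3 stood apart in those ranked 1, 4, 5, 8, 11 and 13, at 1290, 1154, 328.5, 1760, 2330 and 12.96 in that order. It did so in those ranked 18, 24, 31, 42, 46 and 60 as well, at 2342, 713, 135, 3753, 5763 and 64.9. The same held for the members ranked 77, 79, 97, 98, 117 and 126, at 61.3, 77.6, 264.8, 5614, 71.5 and 126, and for those ranked 131, 143, 149 and 150, at 577, 459, 114 and 118. Halofantrine replicate 1 stood apart in the members ranked 3, 5, 31 and 79, at 48.1, 115.4, 72.5 and 23.8. Halofantrine replicate 3 stood apart in the member ranked 97, at 4.51.

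The same measure was then taken for each of the 150 members. A library stood apart within the DMSO group in 118 members (78.7%, against the 20.1% above), and it was DMSO replicate 3, above the others, in 117 of these. Within the halofantrine group a library stood apart in 26 members (17.3%, against 7.92% of all genes), and it was halofantrine replicate 1, above the others, in 22. Neither library stood apart below its group in any member. Over all 11620 genes, DMSO replicate 3 did so in 296 and halofantrine replicate 1 in 273. The score takes the lowest P23H value, so a gene with a library far below its group scored lower for it. The rule thus disfavoured such genes, and nothing is read from their absence among the members. What set these libraries apart was not tested.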

How the results depend on the processing

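With 1121 genes called higher and 1305 called lower in P23H (edgeR), limma-voom gave 546 higher. Leaving out both DMSO replicate 3 and halofantrine replicate 1 gave 2851 higher and 3052 lower. Limma-voom with sample weights, chosen after seeing the data, gave 4040 higher and 3408 lower. Leaving out each library in turn gave 124 to 1878 higher and 356 to 2306 lower. The lowest counts came without wild-type replicate 2 (155 and 419 without wild-type replicate 1), where the lone wild-type library is assumed to vary like the other groups. DMSO replicate 3 (1878 and 2198 without it) and halofantrine replicate 1 (2306 lower without it) also moved counts by over 1.5 times. The cause was not tested. The split of higher against lower calls was 984 to 1564 with DESeq2 size factors, 1185 to 1149 with upper quartile factors and 959 to 1636 with the authors' scaling constants, the last added after seeing the data.

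Of the 150 members, 123 to 150 were kept when each library was left out in turn, 113 without DMSO replicate 3 and halofantrine replicate 1, 103 with a minimum mean of 20, 126 with a pseudocount of 2 and 121 when the median replaced the lowest P23H value (added after seeing the data). Plain counts-per-million moved the median of all genes by 0.15 (log2, P23H minus wild type), and 142 members were kept. The median score lay between 1.28 and 1.87 over all alternatives. The median halofantrine minus DMSO difference was below 0 under each alternative except without DMSO replicate 3, where it was 0.05. Without DMSO replicate 3 and halofantrine replicate 1 it was -0.03 (-0.01 over all genes). All other alternatives kept DMSO replicate 3, so they do not show that the difference holds without that library. No paired analysis was possible because replicate numbers only name samples in the order of deposition. Counts for gene lists outside the members were not run, as the lists are by symbol. At low levels counting error limits the wild-type values, with 3 counts at 0.181 and 0.258 in its libraries.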
